A study of Mus musculus with 8 samples.

Results

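Macrophages that had infiltrated the injured mouse retina were profiled by RNA sequencing in 4 of the 8 libraries of this series. They are the libraries whose titles begin with GFP and carry the numbers 5 to 8, and they are called macrophage 5 to macrophage 8 below. The other 4 libraries, numbered 1 to 4, are labelled as microglia, which reside in neural tissue as its own macrophages, and are used here for library-level comparisons and as a background for markers of other cells. In both groups the mice were Msi1-CreERT2/+; R26R-DTA/+ on a mixed background of C57BL/6 and 129, were about 5 months old and were sampled on day 7 after injury. Msi1-CreERT2 is a tamoxifen-inducible Cre recombinase driven from Msi1, a gene of neural progenitors that is also active in photoreceptors and glia, and R26R-DTA lets Cre switch on the diphtheria toxin A chain, which kills the cell that makes it. No uninjured group is among the samples. The sources used here give neither the meaning of GFP nor the way in which cells were separated. Separate animals are not named for the 4 libraries either, so the spread between them may be technical.

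Blood monocytes enter injured neural tissue by following the chemokines Ccl2, Ccl7 and Ccl12 through the receptor Ccr2. In the tissue they lose monocyte markers such as Ly6c2 and differentiate towards macrophages, which take up debris, digest it in lysosomes, store iron in ferritin, make the complement protein C1q and secrete the lipid carrier apolipoprotein E. Many also present antigen on MHC class II molecules, a property they share with dendritic cells, some of which likewise arise from monocytes. With a single population there was no contrast to test within it, and its genes are described by level, rank, share and spread over the 4 libraries.

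Values are FPKM, in which fragments are divided by transcript length and library size, so levels of different genes are compared per length. Genes with a failed estimate (9 symbols) and microRNA and snoRNA symbols (711) were left out, which left 21838 genes. The FPKM of these genes summed to 274828 in macrophage 5, 480806 in macrophage 6, 188330 in macrophage 7 and 219735 in macrophage 8. The estimated depth was 24.8, 21.6, 23.2 and 22.4 M fragments in that order, so the sums did not follow depth. A second scale was therefore computed, in which each library was divided by its median-of-ratios factor (1.09, 1.59, 0.660 and 1.10), and "scaled" below refers to it. Over genes whose mean reached 5 FPKM, the median log2 deviation from the mean of the 4 libraries was 0.05, 0.84, -0.71 and -0.07 as deposited and 0.02, 0.29, -0.09 and -0.11 after scaling. Macrophage 6 thus stood above the others on most genes as deposited, and macrophage 7 below them. Across the 12305 genes at 1 FPKM or more in any of the libraries, Pearson's r of log2(FPKM + 1) was 0.918 between macrophages 5 and 8, 0.894 between 5 and 6 and 0.884 between 6 and 8. It was 0.848, 0.824 and 0.827 between macrophage 7 and macrophages 5, 6 and 8. These are correlations over genes, not over independent replicates, and macrophage 7 was the library least like the other 3.

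The 4 markers of the population were all detected. Cd74, the invariant chain of MHC class II, was at 6316, 5438, 2151 and 7246 FPKM in macrophages 5, 6, 7 and 8, and H2-Ab1, a class II beta chain, was at 4010, 3167, 755 and 3940 FPKM. Ly6c2 was at 112, 495, 28.6 and 64.5 FPKM. Ccr2 was at 49.0, 53.0, 2.64 and 99.4 FPKM, so this receptor was low in macrophage 7. Genes known as microglial were present beside them: Tmem119 was at 242, 365, 230 and 106 FPKM, P2ry12 at 17.3, 29.0, 4.54 and 10.6 FPKM and Cx3cr1 at 55.03, 119, 30.1 and 46.8 FPKM, while Sall1, a transcription factor of resident microglia, was at 0 in 3 libraries and at 0.035 FPKM in macrophage 7. Core macrophage genes were also present in every library, as described below. In these bulk samples a larger number of cells of a type and more RNA per cell cannot be told apart.

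Genes at 1 FPKM or more numbered 9968, 9417, 8718 and 10137 in macrophages 5, 6, 7 and 8. All 4 libraries shared 6849 of them, a further 1988 reached 1 FPKM in 3 libraries, 1412 in 2 and 2056 in 1. Macrophage 7 was the one most often missing: 1192 genes reached 1 FPKM in the other 3 libraries and not in it, against 440 for macrophage 6, 201 for macrophage 5 and 155 for macrophage 8. Of the genes found in all 4, 2005 were at 10 FPKM or more throughout, 200 at 100 or more and 9 at 1000 or more. Those 9 were Apoe, Fth1, Cd74, Tmsb4x, C1qb, Ftl1, Ctsd, Lyz2 and Cst3. At the other end, 9533 genes stayed below 1 FPKM in every macrophage library, of which 2259 were listed at 0 in all 4.

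The FPKM of infiltrating macrophages was spread over more genes than that of microglia on average, but none of 4 measures of this passed the test. The number of genes at 1 FPKM or more was 9560 ± 640 for macrophages and 8081 ± 1503 for microglia (SD, 4 libraries each; two-sided exact permutation test, p = 0.114, Benjamini-Hochberg adjusted over 4 measures 0.143). The 10 highest genes held 16.7% ± 3.75 of the FPKM sum against 20.3% ± 0.55 (exact p = 0.143, adjusted 0.143), and the 100 highest held 39.3% ± 4.74 against 45.5% ± 1.89 (exact p = 0.0857, adjusted 0.143). The smallest set of genes that holds 50% of the sum counted 238 ± 77.4 genes in macrophages and 144 ± 24.5 in microglia (exact p = 0.0857, adjusted 0.143). The smallest two-sided p that 4 against 4 allows is 0.0286. The estimated depth was 11.6, 20.2, 18.8 and 20.9 M fragments in microglia 1 to 4. Each of these was below the 21.6 to 24.8 M fragments of the macrophage libraries. The part of depth in these differences was not tested. Without microglia 2 the difference in genes at 1 FPKM or more was 775.7 in place of 1479, and without macrophage 8 the difference in genes holding 50% of the sum was 62.83 in place of 94.25. Without macrophage 7 the difference in the share of the 10 highest genes was -5.344 percentage points in place of -3.54, and the adjusted p of all 4 measures was 0.0571. Among the macrophages the set that holds 50% of the sum counted 231, 245, 143 and 332 genes in libraries 5 to 8. Macrophage 7 was thus the most concentrated and on this measure lay within the microglial range. Its 10 highest genes held 22.1% of the sum, above the 19.6% to 20.9% of the microglial libraries.

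The most abundant transcripts came from a few activities. Among the 25 genes with the highest mean FPKM apart from predicted genes, 4 served MHC class II presentation (Cd74, H2-Ab1, H2-Aa and the protease Ctss), 4 the lysosome (the cathepsins Ctsd, Ctsz and Ctsb and the cathepsin inhibitor Cst3), 2 iron storage (the ferritin chains Fth1 and Ftl1), 2 complement (C1qb and C1qc) and 2 MHC class I (B2m and H2-D1). Apoe, which carries cholesterol out of cells, was first in macrophages 5, 6 and 7 at 10764, 12306 and 15033 FPKM and second in macrophage 8 at 6852 FPKM, where Cd74 was first. It held 4.39% ± 2.46 of the FPKM sum (SD, n = 4). Fth1 was at 5249, 11875, 4486 and 3350 FPKM and ranked between 2 and 4. Tmsb4x, which binds actin monomers, was at 4167, 7973, 3003 and 2443 FPKM and ranked between 3 and 6. Among the 10 highest of every library were 6 genes, namely Apoe, Fth1, Cd74, Tmsb4x, C1qb and Ctsd, out of 14 that were in the 10 highest of any. The agreement was looser further down, where 74 genes were in the highest 100 of all 4 libraries out of 135 in any.

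**Figure D1:**
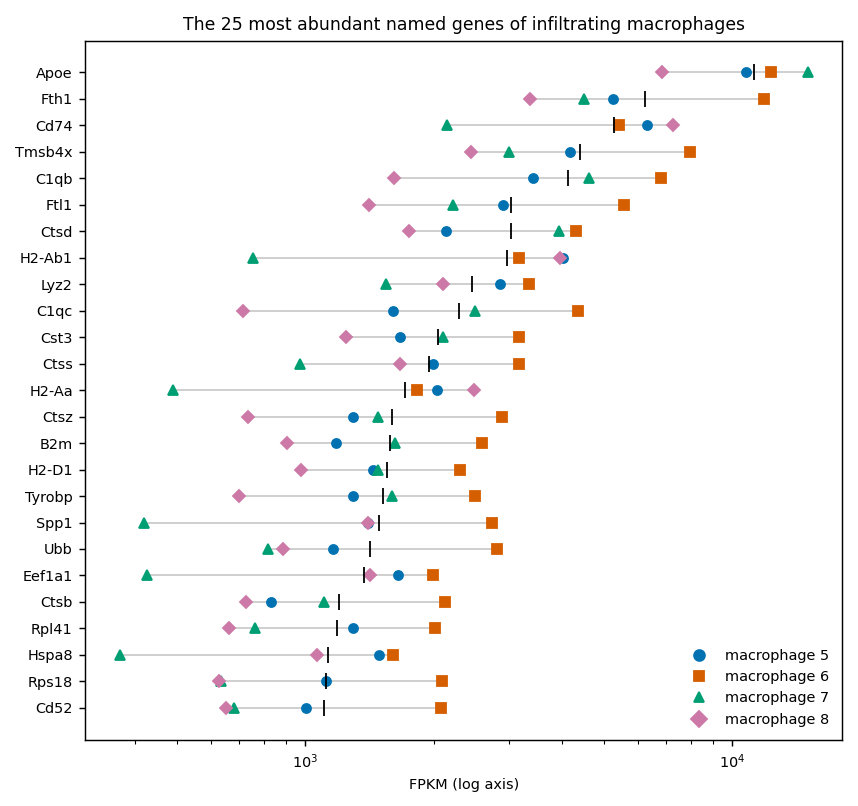
FPKM (log axis) of the 25 named genes with the highest mean in infiltrating macrophages, 1 point per library and a black tick at the mean. Apoe lies between 6852 and 15033 FPKM, and H2-Ab1, H2-Aa, Spp1, Eef1a1 and Hspa8 each have macrophage 7 below the other 3 libraries.

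Among the 100 genes with the highest mean, predicted genes included, cytosolic ribosomal protein genes were the most numerous class, with 19 members that held 3.91% ± 0.53 of the FPKM sum. Lysosomal genes gave 11 members and 4.12% ± 1.32, actin cytoskeleton genes 6 members and 2.59% ± 0.34, and MHC class II genes 5 members and 4.61% ± 2.33 (SD, n = 4 each). Core macrophage genes gave 4, namely Tyrobp, Cd52, Cd68 and Laptm5. Genes of the type I interferon response also gave 4, namely Ifi27l2a, Ifitm3, Bst2 and Ly6e. Chemokines were represented by Ccl12, Ccl2 and Cxcl16. A further 18 genes were in none of the lists, among them the ubiquitin gene Ubb and Gpx1, a peroxidase that removes hydrogen peroxide, and 6 were predicted genes or clones. The 39 functional lists together held 49.3% of the sum.

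**Figure D2:**
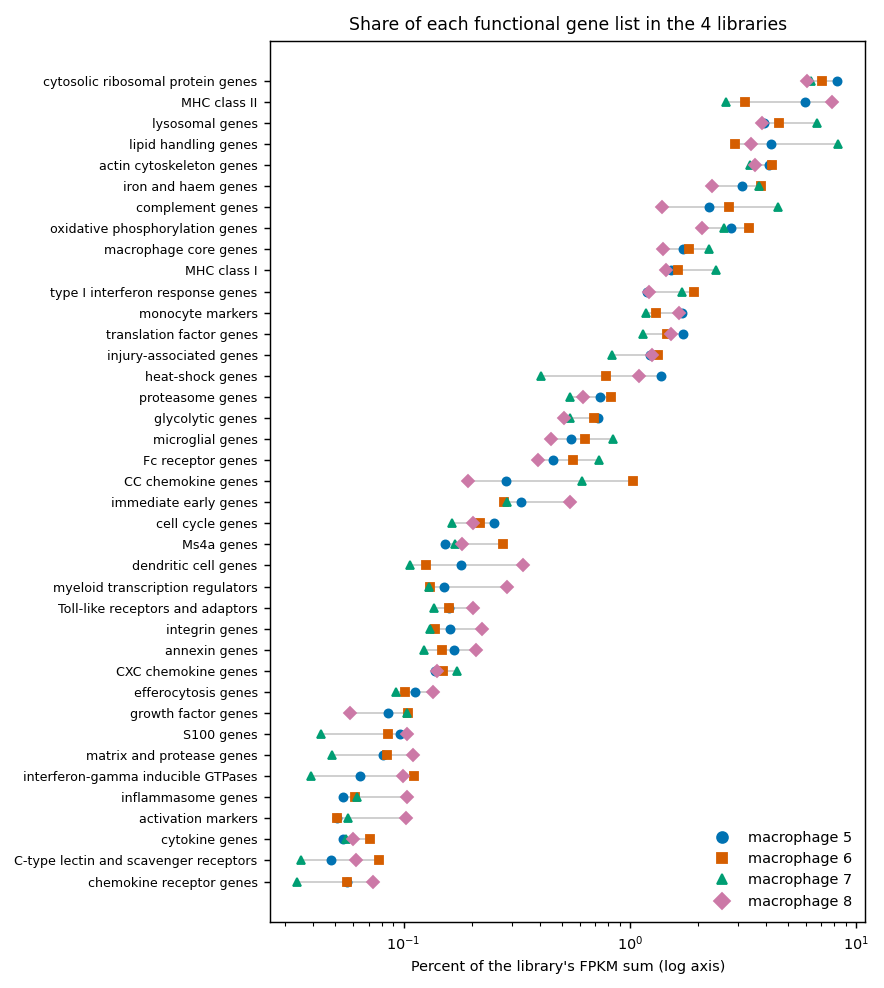
Percent of each library's FPKM sum (log axis) held by 39 functional gene lists, 1 point per macrophage library, ordered by the mean. Ribosomal protein genes hold 6.02% to 8.24%, while MHC class II genes reach from 2.66% in macrophage 7 to 7.81% in macrophage 8 and CC chemokine genes from 0.192% to 1.03%.

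MHC class II genes were highest in macrophages 5 and 8 and lowest in macrophage 7. The list of 13 genes held 5.93%, 3.22%, 2.66% and 7.81% of the FPKM sum in macrophages 5, 6, 7 and 8, a mean of 4.90% ± 2.41. The class II chain genes lie side by side on chromosome 17 of the mm9 build, H2-Ab1 at chr17:34400172-34406363, H2-Aa at chr17:34419696-34424716 and H2-Eb1 at chr17:34442812-34453619. H2-Aa, the alpha chain that pairs with H2-Ab1, was at 2037, 1829, 490 and 2484 FPKM, and H2-Eb1, a second beta chain, at 950, 678, 236 and 996 FPKM. All 3 chain genes and Cd74 thus had their lowest value in macrophage 7, and after scaling macrophage 7 was still the lowest for 10 of the 12 list members with a mean of at least 5 FPKM, against 37.1% of all genes. Macrophage 8 was the highest for 7 of those 12, against 16.3%. The gaps were mostly small. On scaled log2(FPKM + 1), 1 of the 12 was at least 1 below the nearest library in macrophage 7, against 10.4% of all genes. By the same measure 1 was above in macrophage 8, against 0.707%.

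The peptide-loading and processing members varied less. H2-DMa, a chain of the chaperone that loads peptides onto class II, was at 389, 401, 163 and 285 FPKM and had an SD of 0.25 on the scaled log2 scale. Ctss, the protease that trims the invariant chain, was at 1990, 3173, 973 and 1669 FPKM and had a scaled SD of 0.21, and Ifi30, a lysosomal thiol reductase that unfolds antigens, a scaled SD of 0.24. Ciita, the master regulator that switches class II genes on, was the most variable at 8.43, 0.898, 1.21 and 16.5 FPKM, with a scaled SD of 1.52. H2-Ob, a chain of the H2-DM inhibitor, was at 3.48, 4.04, 0.068 and 12.4 FPKM. Both were highest in macrophage 8, and as deposited Ciita was next highest in macrophage 5 and H2-Ob in macrophage 6.

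The proximal promoters of H2-Aa and H2-Eb1 are shown because their transcripts varied together over the 4 libraries. Class II promoters share an X box, read by the RFX complex, and a Y box, read by NF-Y, onto which Ciita assembles. The sequences are from RefSeq on GRCm38.p6, run 5′ to 3′ from 250 bases before the transcript start to 50 bases after it, and lie at chr17:34287774-34288073 on the minus strand for H2-Aa and at chr17:34305617-34305916 on the plus strand for H2-Eb1. Capitals mark matches on either strand to the letters CTNGCAAC (X box, N being any base) and ATTGG (Y box), which were chosen after these sequences had been seen.
H2-Aa: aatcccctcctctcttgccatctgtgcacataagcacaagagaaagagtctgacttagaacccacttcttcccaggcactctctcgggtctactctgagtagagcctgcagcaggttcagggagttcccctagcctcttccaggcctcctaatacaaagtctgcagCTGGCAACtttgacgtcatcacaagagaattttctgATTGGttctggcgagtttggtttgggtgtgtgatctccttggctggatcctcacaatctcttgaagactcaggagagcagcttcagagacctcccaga
H2-Eb1: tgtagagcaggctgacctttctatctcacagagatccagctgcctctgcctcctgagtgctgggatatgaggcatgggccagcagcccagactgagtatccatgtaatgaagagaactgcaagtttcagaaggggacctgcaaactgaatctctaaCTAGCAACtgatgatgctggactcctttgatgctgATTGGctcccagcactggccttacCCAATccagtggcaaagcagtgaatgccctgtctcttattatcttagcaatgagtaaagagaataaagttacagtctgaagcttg
In both promoters the X box lay upstream of a Y box, with 28 bases between them in H2-Aa and 27 in H2-Eb1, and H2-Eb1 held a further Y box on the opposite strand. Of 32851 promoters in the same table, 3.43% held the X box letters, 37.4% the Y box letters and 1.32% both. An X box followed by a Y box 26 to 30 bases on, a window chosen from these sequences, was found in 12 promoters, or 0.0365%. A match describes letters and not binding.

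Monocyte markers took their smallest share in macrophage 7, and their highest library differed from gene to gene. The 22 listed genes held 1.71%, 1.30%, 1.18% and 1.65% of the FPKM sum. Most of that was the lysozyme gene Lyz2, at 2855, 3335, 1545 and 2107 FPKM, which was steady with a scaled SD of 0.20, and its neighbour Lyz1 with a scaled SD of 0.19. After scaling both were lowest in macrophage 8, as was the sum of the list. By gene, 13 of the 16 with a mean of at least 5 FPKM were lowest in macrophage 7, against 37.1% of all genes. Ly6c2 and its near copy Ly6c1, whose shared reads the authors' software had to divide, were highest in macrophage 6, where Ly6c1 was at 142 FPKM against 8.52 to 35.1 FPKM in the others. Plac8, a gene of classical monocytes, was at 53.5, 245, 21.8 and 79.5 FPKM, so all 3 genes were highest in macrophage 6 and lowest in macrophage 7. Ccr2 instead was highest in macrophage 8. A gene was said to stand apart when its scaled log2(FPKM + 1) in 1 library was at least 1, or 2-fold, above or below the nearest of the other 3. On this measure 4 of the 16 monocyte markers with a mean of at least 5 FPKM stood apart above in macrophage 6 (Ly6c2, Ly6c1, Ms4a4c and Plac8), where the share over all 5659 such genes was 2.77%. Another 4 stood apart below in macrophage 7 (Ccr2, Chi3l3, Emilin2 and F13a1), where that share was 10.4%.

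Genes typical of dendritic cells differed most between macrophages 7 and 8. The 21 listed genes held 0.180%, 0.125%, 0.106% and 0.338% of the FPKM sum in macrophages 5 to 8. The chemokine gene Ccl5 was the most abundant member, with a mean of 173.9 FPKM against 509.4 FPKM for the whole list. In macrophage 8 it gave 277.4 of 741.9 FPKM, so these shares lean on this gene. Ccr7, the receptor that guides dendritic cells to lymph nodes, was at 15.8, 11.1, 0.165 and 62.4 FPKM. Flt3, a cytokine receptor of dendritic cell precursors, was at 4.93, 4.74, 0.024 and 24.4 FPKM. Both were therefore close to 0 in macrophage 7 and highest in macrophage 8. Of the 16 members with a mean of at least 5 FPKM, 9 stood apart below in macrophage 7, against 10.4% of all genes, and 3 stood apart above in macrophage 8 (Ccr7, Flt3 and Cacnb3), against 0.707% of all genes. The median deviation of the list on the scaled log2 scale was 0.23, -0.21, -1.46 and 0.97 in macrophages 5 to 8.

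Other dendritic cell genes did not share that order. Ccl17, a chemokine of monocyte-derived dendritic cells, was at 48.1, 97.5, 1.07 and 20.4 FPKM, and Ccl22, its functional relative, at 3.76, 23.9, 0.078 and 17.6 FPKM, so that both were highest in macrophage 6 as deposited. After scaling Ccl17 was still highest there, while Ccl22 was slightly higher in macrophage 8 than in macrophage 6. Zbtb46, a transcription factor of classical dendritic cells, was at 5.66 and 10.1 FPKM in macrophages 5 and 8, at 0.669 FPKM in macrophage 7 and listed at 0 in macrophage 6. Itgax, which encodes CD11c, was at 46.6, 64.9, 40.8 and 56.1 FPKM and was the first of the 15 steadiest genes described below. Clec9a and Xcr1, which mark cross-presenting dendritic cells, were at no more than 0.825 and 5.08 FPKM. Outside the lists, genes that stood far apart above in macrophage 8 included Cdh1, which encodes E-cadherin, at 12.1, 14.4, 0.013 and 43.2 FPKM, and Neat1, a nuclear long noncoding RNA, at 5.98, 6.803, 4.33 and 20.6 FPKM. The share of dendritic cells in any library was not measured, and its part in these differences was not tested.

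Core macrophage genes were found throughout. All 19 listed genes were at 1 FPKM or more in all 4 libraries, and none of the 17 with a mean of at least 5 FPKM had a scaled SD of 1 or more, against 9.70% of all genes. Csf1r, the receptor for the growth factor on which macrophages depend, was at 234, 357, 179 and 201 FPKM with a scaled SD of 0.23. Tyrobp, an adaptor for activating receptors, was at 1293, 2493, 1594 and 700 FPKM, and after scaling was highest in macrophage 7 and lowest in macrophage 8. Scaled values were highest in macrophage 7 for 10 of the 17, against 1302 of all 5659 genes, and lowest in macrophage 8 for 13, against 34.2%.

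Microglial genes took their smallest share in macrophage 8 as well. The 18 genes held 0.549%, 0.633%, 0.841% and 0.447% of the FPKM sum. Fcrls, an Fc receptor-like gene of microglia, was at 251.1, 568, 489 and 144 FPKM and Gpr34, a lysophospholipid receptor, at 7.66, 49.4, 27.8 and 6.17 FPKM, both lowest in macrophage 8. Siglech was at 3.51, 8.89, 0.917 and 2.20 FPKM. Of the 12 members with a mean of at least 5 FPKM, 8 had their lowest scaled value in macrophage 8, against 34.2% of all genes, and 3 stood apart below there (Tmem119, Olfml3 and Bin1), against 2.76% of all genes. P2ry12, P2ry13 and Golm1 were among the 4 that instead had their lowest scaled value in macrophage 7. The part of resident microglia in these values was not tested.

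Complement and lysosomal genes took their largest share in macrophage 7 and their smallest in macrophage 8. Complement genes held 2.23%, 2.74%, 4.48% and 1.39% of the FPKM sum, nearly all of it from the C1q chains that recognise debris, whose genes are neighbours at chr4:136436061-136454759 of mm9. C1qb was at 3415, 6812, 4622 and 1613 FPKM, C1qc at 1602, 4341, 2495 and 717 FPKM and C1qa at 788, 1397, 1161 and 366 FPKM. As deposited all 3 were highest in macrophage 6, after scaling all 3 were highest in macrophage 7, and on either scale they were lowest in macrophage 8, where all 3 stood apart below. Cfp, which encodes properdin, a stabiliser of the alternative complement pathway, went the other way, at 110, 170, 11.6 and 140 FPKM.

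The 28 lysosomal genes held 3.92%, 4.55%, 6.73% and 3.84% of the sum, and none of the 26 with a mean of at least 5 FPKM had a scaled SD of 1 or more, against 9.70% of all genes. Ctsd, the aspartic protease of lysosomes, was at 2139, 4293, 3932 and 1750 FPKM and ranked 9, 8, 4 and 8. Psap, from which the saposins that help degrade sphingolipids are cut, was steady at 826, 1115, 706 and 710 FPKM. Plbd1, a lysosomal phospholipase-like gene, was at 127, 178, 27.0 and 158 FPKM, the largest spread of the list as deposited, though Ctsd had a larger SD after scaling. Ctsc, which activates granule proteases, shared its low value in macrophage 7, at 448, 1225, 162 and 321 FPKM.

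Lipid-handling genes held 4.195%, 2.90%, 8.32% and 3.43% of the sum, which was largely Apoe. Plin2, the coat protein of lipid droplets, was at 178, 490, 205 and 139 FPKM. Cd36, a scavenger receptor for oxidised lipid, was at 12.97, 74.3, 7.76 and 9.64 FPKM and stood apart above in macrophage 6. Apoc4 was at 2.68 and 0.165 FPKM in macrophages 5 and 8 and at 15.1 and 15.8 FPKM in macrophages 6 and 7. Nr1h3, the oxysterol receptor LXR alpha, was at 6.24, 6.17, 0.209 and 11.6 FPKM, so that of this list Apoe was relatively highest and Nr1h3 lowest in the same library.

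Iron genes held 3.12%, 3.79%, 3.71% and 2.31%. Beside the ferritins, Hmox1, which breaks down haem, was at 53.3, 129, 46.1 and 29.6 FPKM, and Slc11a1, an exporter of metal ions from phagosomes, at 44.4, 101, 42.6 and 40.0 FPKM. Among the Fc receptor genes, which let macrophages bind antibody-coated targets, Fcer1g was at 899, 1829, 1055 and 533 FPKM and Fcgr3 at 148, 405, 130 and 123 FPKM. Of the genes commonly induced in macrophages of injured neural tissue, Spp1 (osteopontin) was at 1404, 2730, 420 and 1405 FPKM and Trem2, a lipid-sensing receptor, at 162, 268, 202 and 72.1 FPKM. Gpnmb, a glycoprotein of phagocytes, was at 181, 76.0, 9.76 and 171 FPKM, and like Spp1 it was lowest in macrophage 7.

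The CC chemokine list took its largest share in macrophage 6 and its smallest in macrophage 8. Its 13 genes held 0.282%, 1.03%, 0.616% and 0.192% of the FPKM sum. The list does not hold Ccl5 and Ccl17, which were listed with the dendritic cell genes. Ccl17 was highest in macrophage 6, but Ccl5 was highest in macrophage 8, at 277 FPKM against 165 FPKM in macrophage 6. The genes of the Ccr2 ligands Ccl2, Ccl7 and Ccl12 lie in a cluster with Ccl8 on chromosome 11 of mm9. Ccl2 is at chr11:81849079-81850954, Ccl7 at chr11:81859214-81861025, Ccl12 at chr11:81915347-81916901 and Ccl8 at chr11:81928687-81930301. Ccl2 was at 153, 1122, 111 and 62.0 FPKM, Ccl7 at 67.3, 724, 71.3 and 25.1 FPKM and Ccl12 at 328, 2291, 678 and 145 FPKM. Each was several-fold higher in macrophage 6 than in the other libraries as deposited, and after scaling Ccl2 and Ccl7 still stood apart above there. Ccl8, the next gene along, had another order, at 3.29, 40.1, 90.3 and 4.04 FPKM, and stood apart above in macrophage 7. Of the 8 list members with a mean of at least 5 FPKM, 7 had their highest scaled value in macrophage 6, against 44.8% of all genes. There 3 stood apart above, against 2.77% of all genes, and 4 stood apart below in macrophage 8, against 2.76%.

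The receptor Ccr1 varied less than Ccr2. Ccr1 was at 91.6, 182, 37.8 and 83.2 FPKM, with a scaled SD of 0.41, against 1.795 for Ccr2. Cxcl16, a membrane-bound chemokine, was the highest of its family at 303, 560, 274 and 277 FPKM. Cxcl10, induced by interferons, was at 37.7, 53.9, 20.6 and 7.999 FPKM.

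Genes of the type I interferon response were expressed in every library, and 23 of the 33 with a mean of at least 5 FPKM had their highest scaled value in macrophage 6, against 44.8% of all genes. All 34 listed genes were at 1 FPKM or more in all 4 libraries, and they held 1.19%, 1.91%, 1.70% and 1.21% of the sum. Ifitm3, which blocks entry of viruses, was at 604, 1913, 468 and 521 FPKM, and Irf7, the factor that amplifies the response, at 117, 568, 156 and 125 FPKM. Isg20, an exonuclease, was at 12.6, 89.5, 16.8 and 11.5 FPKM and Isg15, a ubiquitin-like modifier, at 86.4, 323, 57.5 and 43.7 FPKM. Macrophage 6 was again the highest for these 4 genes. Of the GTPases induced by interferon gamma, 7 of 11 were lowest in macrophage 7 after scaling, against 37.1% of all genes, with Ifi47 at 42.0, 217, 19.9 and 52.5 FPKM and Gbp2 at 7.07, 23.03, 0.223 and 11.9 FPKM. MHC class I genes, with 17 of 17 at 1 FPKM or more in all 4 libraries, held 1.52%, 1.63%, 2.41% and 1.45% of the sum. B2m, the light chain of class I, was at 1183, 2594, 1623 and 904 FPKM, and its scaled order, highest in macrophage 7 and lowest in macrophage 8, was opposite to that of the class II chains H2-Aa and H2-Eb1.

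**Figure D3:**
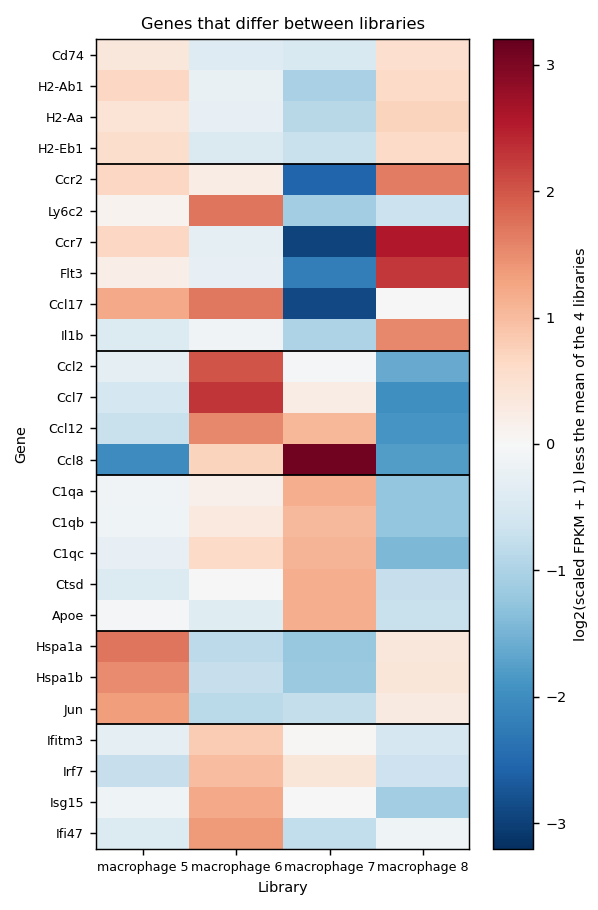
Deviation of log2(scaled FPKM + 1) from the mean of the 4 macrophage libraries, for 26 genes in 6 groups separated by black lines (antigen presentation, monocyte and dendritic cell genes, chemokines, complement with lysosome and lipid, heat shock with Jun, interferon). Red is above and blue below the mean: Ccr7 is at 2.57 in macrophage 8 and -2.96 in macrophage 7, and Ccl8 is at 3.10 in macrophage 7.

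Heat-shock genes were highest in macrophage 5 and lowest in macrophage 7. The 18 genes held 1.38%, 0.785%, 0.406% and 1.10% of the FPKM sum. Hspa1a and Hspa1b encode nearly identical inducible chaperones of the Hsp70 family, and how their shared reads were divided is uncertain. Hspa1a was at 500, 123, 39.2 and 199 FPKM. Hspa1b was at 532, 162, 48.7 and 246 FPKM, with the libraries in the same order. Hspa1l, the third gene of this cluster on chromosome 17, which reaches from chr17:35093374 to chr17:35116173 in mm9, was at 53.9, 11.3, 4.38 and 20.8 FPKM. Of the 15 list members with a mean of at least 5 FPKM, 3 stood apart above in macrophage 5 (Hspa1a, Hspa1b and Hsph1), against 0.371% of all genes, and 6 stood apart below in macrophage 7, against 10.4%. The constitutive member Hspa8 was at 1489, 1603, 368 and 1064 FPKM and Hspd1, the mitochondrial chaperonin, at 47.8, 57.7, 3.78 and 34.3 FPKM, so the low values of macrophage 7 were not limited to the inducible genes.

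The promoters of Hspa1a and Hspa1b are shown because the members of this pair had the same order over the libraries. They lie at chr17:34972107-34972406 and chr17:34959189-34959488 of GRCm38.p6 (RefSeq), both on the minus strand, and run as above. Capitals mark the letters GAANNTTC, a core of the heat-shock element that the factor Hsf1 reads. These letters were chosen after values had been seen.
Hspa1a: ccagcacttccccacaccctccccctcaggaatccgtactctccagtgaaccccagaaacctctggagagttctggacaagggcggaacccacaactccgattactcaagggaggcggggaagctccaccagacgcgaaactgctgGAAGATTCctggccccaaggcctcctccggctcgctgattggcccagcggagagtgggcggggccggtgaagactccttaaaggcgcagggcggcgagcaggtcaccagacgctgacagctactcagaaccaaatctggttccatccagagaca
Hspa1b: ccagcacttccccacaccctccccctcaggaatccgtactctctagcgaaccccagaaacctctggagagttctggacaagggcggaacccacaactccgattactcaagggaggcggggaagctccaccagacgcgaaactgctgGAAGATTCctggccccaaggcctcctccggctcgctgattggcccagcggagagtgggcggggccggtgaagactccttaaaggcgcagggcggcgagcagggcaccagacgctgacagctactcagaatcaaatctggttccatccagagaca
The 2 sequences were identical at 296 of 300 bases (98.7%), and each held the motif once, 104 bases before the transcript start. Of all promoters listed, 7.86% held it on either strand.

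Immediate early genes, which cells switch on within minutes of a stimulus, held 0.330%, 0.278%, 0.288% and 0.545% of the sum. Jun was at 163, 50.5, 22.8 and 79.9 FPKM and, like Hspa1a, was highest in macrophage 5 and next in macrophage 8. Junb was instead among the steadiest genes, at 138, 207, 118 and 176 FPKM, and Fos was at 43.7, 107, 34.1 and 121 FPKM. Dusp2, a nuclear phosphatase, was at 10.5, 0.159, 1.21 and 9.85 FPKM. After scaling 8 of 22 members were highest in macrophage 5, against 15.8% of all genes, and 7 in macrophage 8, against 16.3%. Another 4 were highest in macrophage 7, against 1302 of all 5659 genes, and 3 in macrophage 6, against 44.8% of them. As many members, 8 of 22, were lowest in macrophage 5, against 17.5% of all genes. The median deviation of the list on the scaled log2 scale was -0.16 in macrophage 5 and 0.33 in macrophage 8.

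Genes of protein synthesis and of oxidative phosphorylation were lowest in macrophage 8 after scaling. Cytosolic ribosomal protein genes held 8.24%, 7.01%, 6.29% and 6.02% of the sum, with 78 of 82 at 1 FPKM or more in all 4 libraries. After scaling 70 of the 78 with a mean of at least 5 FPKM were lowest in macrophage 8, against 34.2% of all genes, whereas the summed FPKM as deposited was lowest in macrophage 7. Genes of oxidative phosphorylation held 2.79%, 3.36%, 2.60% and 2.08%, and 67 of 76 were lowest in macrophage 8 after scaling. In that list 10 stood apart below in macrophage 8, against 2.76% of all genes, among them the complex III subunits Uqcrq, at 196, 460, 141 and 95.4 FPKM, and Uqcr10, at 166, 352, 83.5 and 67.2 FPKM. Actin cytoskeleton genes held 4.11%, 4.24%, 3.40% and 3.55%, translation factors 1.71%, 1.46%, 1.15% and 1.51%, proteasome genes 0.735%, 0.824%, 0.542% and 0.618%, and glycolytic genes 0.719%, 0.692%, 0.546% and 0.513%. Eef1a1, the elongation factor that brings transfer RNA to the ribosome, was at 1645, 1995, 425 and 1421 FPKM. Pfkp, a phosphofructokinase of glycolysis, was at 11.4, 0.465, 0.035 and 18.2 FPKM, the most variable of its list with a scaled SD of 2.097.

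Cell cycle genes were detected in all libraries. Of 33 genes, 31 were at 1 FPKM or more in all 4, and the list held 0.2501%, 0.218%, 0.164% and 0.204% of the sum. Mki67, a marker of cycling cells, was at 7.51, 9.19, 3.71 and 7.57 FPKM with a scaled SD of 0.14, and Top2a, which untangles replicated DNA, at 11.9, 14.6, 4.47 and 10.5 FPKM. Rrm2, a subunit of ribonucleotide reductase, was more variable, at 23.1, 52.3, 3.93 and 20.3 FPKM. Of the 30 members with a mean of at least 5 FPKM, 0 had a scaled SD of 1 or more, against 9.70% of all genes.

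Cytokines and activation markers were low beside the genes above. The 18 cytokine genes together held 0.060% ± 0.0077 of the sum. Il1b, the secreted product of inflammasome activation, was listed with the inflammasome genes and was at 31.4, 57.0, 12.6 and 128 FPKM, highest in macrophage 8. Tnf was at 3.195, 11.1, 0.059 and 3.07 FPKM, Il6 at 2.77 FPKM or less and Il10 at 0.585 FPKM or less. Tnfsf13b, a survival factor for B cells, had the highest mean of the cytokine list, which does not hold Il1b, at 25.96, 94.6, 16.5 and 13.1 FPKM. Of the polarisation markers, Arg1 (arginase) was at 6.03, 31.3, 1.41 and 14.99 FPKM, and Nos2 (inducible nitric oxide synthase) at 1.42 FPKM or less. Socs3, Cd86 and Il4ra were at 24.8 FPKM or more in every library. Unc93b1, which carries Toll-like receptors to endosomes, was at 249, 378, 143 and 250.9 FPKM, and its scaled SD was only 0.05.

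Membrane and calcium-binding families divided by member. The Ms4a genes Ms4a7 and Ms4a6d were at 207, 506, 179 and 96.0 FPKM and at 117, 517, 81.0 and 166 FPKM. The integrin genes Itgb5 and Itgb2 were at 181, 302, 144 and 183 FPKM and at 111, 141, 39.9 and 124 FPKM, and Itgb7, which pairs with alpha chains on gut-homing and dendritic cells, at 27.5, 15.8, 2.98 and 36.4 FPKM. Of the 6 S100 genes averaging 5 FPKM or more, 4 stood apart below in macrophage 7, against 10.4% of all genes. S100a10, the partner of annexin A2, was at 39.2, 61.7 and 21.6 FPKM in macrophages 5, 6 and 8 and listed at 0 in macrophage 7, and S100a4, a gene of migrating cells, was at 33.9, 13.3, 0.845 and 33.1 FPKM. Anxa2 itself was at 117, 61.3, 17.1 and 137 FPKM and Anxa1, which helps resolve inflammation, at 41.5, 45.9, 4.204 and 58.7 FPKM. Matrix and protease genes such as Thbs1, at 5.56, 18.5, 0.776 and 19.9 FPKM, were in part low in macrophage 7. There 5 of 10 stood apart below, against 10.4% of all genes. Another 3 of the 10 had their highest scaled value there, against 1302 of all 5659 genes.

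How far a gene varied depended on the scale. Of the 5659 genes whose mean was 5 FPKM or more, 115 (2.03%) had an SD of log2(FPKM + 1) of 0.25 or less as deposited and 1378 (24.4%) an SD of 1 or more, with a median of 0.79. After scaling these counts were 564 (9.97%) and 549 (9.70%), with a median of 0.51. High spread was kept by 508 genes on both scales, whereas low spread was kept by 1. The median scaled SD was 0.56 for genes averaging 5 to 10 FPKM and 0.50 for those above 100 FPKM.

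The steadiest genes included some macrophage and lysosomal genes beside general ones. Lysosomal genes as a list were not steadier by their median scaled SD, which was 0.58 against 0.51 over all 5659 genes. For core macrophage genes this median was 0.48. A scaled SD of 0.25 or less was found for 3 of 26 lysosomal and 3 of 17 core macrophage genes, against 9.97% of all. The 15 genes with the smallest spread (ranked by the larger of the SDs as deposited and after scaling), at a mean of at least 50 FPKM, included Itgax, Cyth4, Psap, Tapbp, Gltscr2, Tcirg1, Junb, Pfdn5, Acp5, Laptm5, Mrfap1, Tsc22d3, H2-Q9 and D4Wsu53e. Itgax had SDs of 0.29 as deposited and 0.27 after scaling. Cyth4, an exchange factor for Arf GTPases, was at 86.1, 86.3, 60.9 and 84.9 FPKM. Tapbp, which loads peptides onto class I, was at 91.9, 148, 88.5 and 98.1 FPKM. Acp5, a phosphatase of macrophages and osteoclasts, was at 162, 141, 85.7 and 124 FPKM, and Laptm5, a lysosomal membrane protein of blood cells, at 541, 646, 354 and 390 FPKM.

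The most variable genes were mainly genes low in macrophage 7. Among the 15 with the largest spread (ranked by the smaller of those SDs), at a mean of at least 20 FPKM, macrophage 7 was the lowest for S100a10, Ccr7, Bhlhe40, Ccl17, Fh1, Cd69, Naaa, S100a4 and Ccr2. Of all 5659 genes, 37.1% had their lowest scaled value in macrophage 7. Bhlhe40, a transcription factor of activated immune cells, was at 25.2, 48.1, 0.488 and 68.3 FPKM, Cd69, an early activation marker, at 18.9, 48.7, 0.236 and 13.8 FPKM, and Fh1, fumarate hydratase of the citric acid cycle, at 34.7, 42.6, 0.380 and 19.5 FPKM. Ccl7, Ccl8 and Retnlg had other orders, with Retnlg, a gene of neutrophils and monocytes, at 1.06, 61.3, 18.8 and 5.57 FPKM. The remaining 3 were short noncoding RNAs that were high in some libraries and listed at 0 in others: AF357355 at 276 and 257 FPKM in macrophages 6 and 7, Scarna2 at 256 FPKM in macrophage 5 and Scarna17 at 131 FPKM in macrophage 8.

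**Figure D4:**
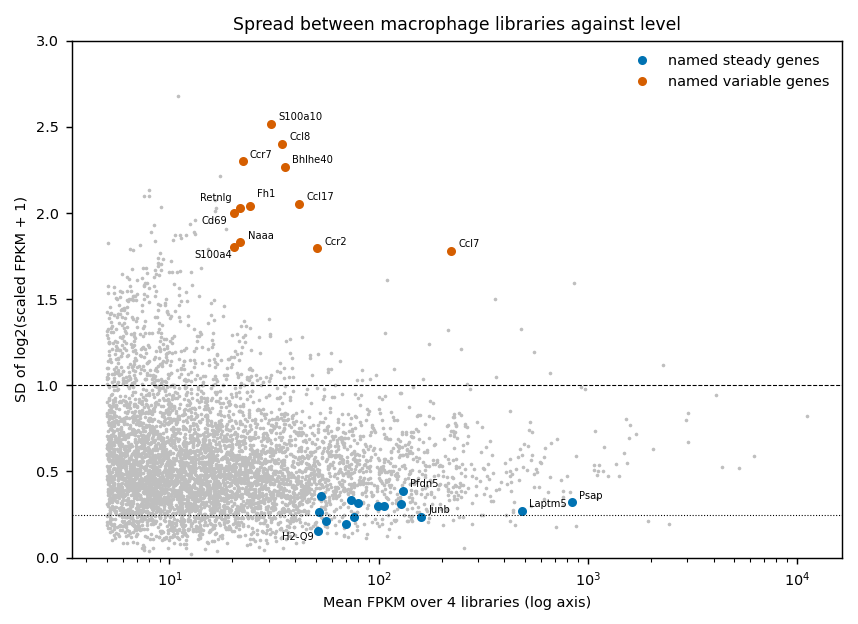
SD of log2(scaled FPKM + 1) over the 4 macrophage libraries against mean FPKM (log axis), 1 grey point for each of 5659 genes, with the 15 steady genes in blue and the named variable genes in orange. Dotted and dashed lines mark SDs of 0.25 and 1, S100a10 lies at 2.52 and H2-Q9 at 0.15, and 4 small or uncharacterised RNA genes above 3 are beyond the axis.

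After scaling, genes standing apart were most numerous on the low side of macrophage 7. They numbered 590 (10.4%) below and 99 (1.75%) above in macrophage 7, 156 (2.76%) below and 40 (0.707%) above in macrophage 8, 81 (1.43%) below and 157 (2.77%) above in macrophage 6, and 51 (0.901%) below and 21 (0.371%) above in macrophage 5. As deposited, 1446 (25.6%) stood apart below in macrophage 7 and 1391 (24.6%) above in macrophage 6. All 590 and all 157 genes counted after scaling were among these. That follows from the factors, of which macrophage 7 had the smallest (0.660) and macrophage 6 the largest (1.59), so scaling could only narrow these gaps. The other counts as deposited were 8 (0.141%) above in macrophage 7, 62 (1.10%) below and 26 (0.459%) above in macrophage 8, 35 (0.618%) below in macrophage 6, and 40 (0.707%) below and 14 (0.247%) above in macrophage 5.

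By definition a gene can stand apart above in only 1 library, and below in only 1. The genes furthest apart in each library were ranked as deposited. In macrophage 5 they included the heat-shock genes and, on the low side, Dgat1, which makes triglycerides, at 1.36 FPKM against 7.84 to 18.8 FPKM. In macrophage 6 Ccl7, Ccl2 and Cd36 were joined by Ddit3, the transcription factor CHOP of the stress response, at 76.5 FPKM against 3.59 to 9.61 FPKM, while Slc27a1, a fatty acid transporter, was at 0.040 FPKM there against 5.85 to 10.4 FPKM. In macrophage 7 Serpine2, a protease inhibitor, was at 18.0 FPKM against 1.35 to 5.23 FPKM, and Hibadh, an enzyme of valine breakdown, at 0.109 FPKM against 20.5 to 23.8 FPKM. In macrophage 8 Mt2, a metallothionein, was listed at 0, against 4.49 to 21.4 FPKM, and Ch25h, which makes 25-hydroxycholesterol, was at 4.64 FPKM against 21.7 to 70.5 FPKM.

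Markers of other cells were examined as summed FPKM. Neutrophil genes summed to 42.7, 252, 143 and 81.0 FPKM in macrophages 5 to 8, against 0.472 to 15.2 FPKM in the microglial libraries. Most of this was S100a8, at 22.0, 92.0, 67.4 and 38.6 FPKM, S100a9 and Retnlg, which monocytes can also express. The granule genes Mpo and Ltf were at 0.678 FPKM or less, and the listed gene Ly6g was not among the symbols measured. Which cells gave these transcripts was not tested. Photoreceptor genes summed to 60.3, 194, 113 and 60.5 FPKM, against 104 to 444 FPKM in microglia, with Pde6g, a subunit of the phosphodiesterase of phototransduction, at 0.840, 6.70, 24.0 and 0.556 FPKM. Gnb1, which many cells express, was at 44.5, 101, 27.5 and 40.3 FPKM and was the highest single gene of that list in each library. Both lists were higher in macrophages 6 and 7, the libraries that also had the largest shares of complement and CC chemokine genes. The part of neutrophil or photoreceptor RNA in those shares was not tested.

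T and NK cell genes summed to 15.2, 8.81, 5.88 and 42.9 FPKM, with none of 20 at 1 FPKM or more in all 4 libraries. Klrd1, a receptor of NK cells that some dendritic cells share, was at 9.17, 3.04, 0 and 20.6 FPKM and was the highest of the list in macrophages 5, 6 and 8, so this list moved with the dendritic cell genes, and its part in them was not tested. The defining T cell genes Cd3d, Cd3e and Cd3g were at 1.59 FPKM or less. B and plasma cell genes summed to between 6.43 and 18.1 FPKM, plasmacytoid cell genes to between 64.5 and 145 FPKM, mostly the broadly expressed receptor Lair1, and mast cell and basophil genes to between 2.20 and 10.9 FPKM. Erythroid genes summed to 4.56 to 25.1 FPKM, against 0.885 to 2461 FPKM in microglia. Mueller glia and astrocyte genes summed to between 63.7 and 213 FPKM, mostly Dbi, which is not limited to glia, with Glul at 7.39 to 18.7 FPKM. Inner retinal neuron, lens, endothelial, pericyte and smooth muscle, and pigment epithelium genes each summed to 17.8 FPKM or less in every macrophage library. Xist, the RNA of the inactive X chromosome, was at 4.84 to 7.94 FPKM in all 4 libraries, and of the Y-linked genes Eif2s3y reached 1.96 FPKM in macrophage 7.

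**Figure D5:**
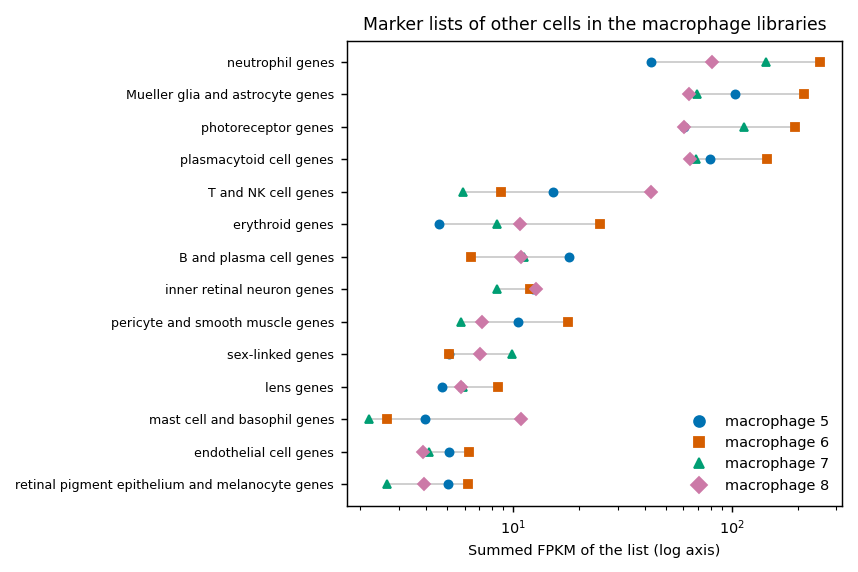
Summed FPKM (log axis) of 14 lists of genes that mark other cells or sex, 1 point per macrophage library. Neutrophil genes reach 252 FPKM and photoreceptor genes 194 FPKM in macrophage 6, T and NK cell genes are highest in macrophage 8 at 42.9 FPKM, and endothelial genes stay at 6.28 FPKM or below.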

How the data were processed

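RNA from microglia and infiltrating macrophages of the injured retina was sequenced in 8 libraries. Per the file headers the deposited values are the authors' FPKM per gene, and the submitters' processing notes name Cufflinks 2.1.1, bcl2fastq 1.8.4 and the mm9 build. For the aligner and the annotation, the sources used here give no name. FPKM holds no counts, so no count test was run, and depth is approximate: it was read from the most frequent low product of FPKM and effective transcript length (length less 150 bases, minimum 800), taken as 1 fragment, over 7611 genes with 1 transcript in GENCODE. On that estimate 1 fragment on a transcript of 2 kb is worth 0.0218 to 0.0250 FPKM in the macrophage libraries.

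Rows of 1 symbol were summed. Spread was the SD of log2(FPKM + 1), with a pseudocount of 1 and a minimum mean of 5 FPKM, as deposited and after median-of-ratios scaling (Python 3.11.15, pandas 2.3.3, numpy 2.4.6, scipy 1.17.1, matplotlib 3.10.9). The scripts were tested on simulated data. Two-sided exact permutation tests compared library-level measures between the groups. Genes were named by rule: the 25 highest means, 3 abundant members and the most variable member of each list, the 15 steadiest and the 15 most variable genes, the 6 genes furthest above and 4 furthest below in each library, and the markers. Further members of the lists were described after their values had been seen where they fall outside that rule. The population, the 53 lists and the rule were chosen with earlier results of these data known. Alternatives varied the scaling, the pseudocount, the filter, the threshold, the measure of spread, the microRNA and snoRNA symbols and the libraries. A few named genes are not reported here.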

Additional observations from a re-analysis of the deposited data

Results flagged for a closer look

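In 15 of 220 named genes examined, 1 macrophage library lay far from the other 3, by a gap to its nearest neighbour that, as a share of the whole range of log2(FPKM + 1) as deposited, exceeded Dixon's critical value for 4 samples. None of the 10 library-level measures did so. Of the 15 genes, Scarna2, Scarna17, Hibadh, Naaa, AU018829, Foxj2 and Gpr31c had been named because they vary most or stand furthest apart in 1 library. Cfp and Anxa1 had been named as the most variable of their lists, Anxa1 also as an abundant member. The count therefore cannot be read against the rate of about 1 in 20 groups of 4 that chance gives. The scale of macrophages 6 and 7 as deposited moves with these gaps.

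Macrophage 7 was the low one for 6 genes. The gap was 0.9548 of the range for Hibadh, 0.9539 for Cyth4, 0.8608 for Anxa1, 0.8587 for H2-Ab1, 0.85 for Naaa, a lysosomal amidase, and 0.834 for Cfp. Macrophage 6 was the high one for 4 genes: 0.9328 for the cytokine Osm, 0.8629 for the lysosomal proton pump subunit Tcirg1, 0.8597 for Cxcl16 and 0.8444 for Fcgr3. The remaining gaps were 0.9142 for AU018829, low in macrophage 6, 0.8547 for the transcription factor Foxj2, high in macrophage 7, and 0.8471 for Gpr31c, low in macrophage 8. For Scarna2 in macrophage 5 and Scarna17 in macrophage 8 the gap was 1, the whole range, since the other libraries were listed at 0.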

How the results depend on the processing

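Of 148 alternatives tried on the main results, 92 were counted as unchanged and 56 were not. Counts had to stay within 1.5 times and the share of the lists within 1 SD. The 40 alternatives of library-level measures were judged otherwise, by direction and by whether the adjusted p passed 0.05. All of these counted as unchanged, although some differences moved by more than 1.5 times, as given above for microglia 2. The count of 6849 genes at 1 FPKM or more in all 4 libraries stayed within 1.5 times under every alternative run, from 7004 to 8041 without 1 library. Adjusted p-values of the 4 library-level comparisons lay between 0.0571 and 0.286 over 40 alternatives. All 265 alternatives of single list shares moved by less than 1 SD, while the share of the 39 lists together fell from 49.26% to 45.19% with microRNA and snoRNA symbols kept.

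Counts of steady, variable and apart genes depended on the scale. With equal FPKM sums, 672 genes had low spread and 600 high spread, and with median-of-ratios scaling 564 and 549. A minimum mean of 1 FPKM gave 329 and 2345, and no filter 5593 and 2374. Without 1 library, low spread ranged from 168 without macrophage 5 to 686 without macrophage 6, and high spread from 686 without macrophage 7 to 2307 without macrophage 5.

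With equal sums, genes apart above numbered 9, 48, 64 and 146 in macrophages 5, 6, 7 and 8, and those apart below 130 in macrophage 6, 724 in macrophage 7 and 41 in macrophage 8. With median-of-ratios scaling the counts above were 157, 99 and 40 in macrophages 6, 7 and 8, and those below 81, 590 and 156. With microRNA and snoRNA symbols kept, 66, 40 and 70 were above in macrophages 5, 7 and 8. A minimum mean of 1 FPKM gave 67, 87 and 112 above in macrophages 5, 7 and 8 and 99, 301 and 101 below in macrophages 5, 6 and 8. No filter gave 265, 272 and 281 above and 99, 306 and 101 below in the same libraries. Without 1 of the other libraries, counts above ranged from 22 (without macrophage 7) to 184 (without 6) in macrophage 5, from 1531 to 2266 (without 5) in macrophage 6, from 13 to 52 (without 6) in macrophage 7 and from 29 to 171 (without 6) in macrophage 8. Counts below ranged from 46 to 200 (without 7) in macrophage 5, from 38 to 83 (without 7) in macrophage 6, from 1508 to 2012 in macrophage 7 and from 69 to 351 (without 7) in macrophage 8. Beyond the changes of filter, scale and number of libraries themselves, the cause was not tested. No paired analysis was possible because the groups share no replicate numbers.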
